A study of Mus musculus with 5 samples.

Results

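Among the sites mapped in mouse stem cell-derived progenitors of motor neurons, 1456 genomic regions held binding events of Olig2 in both of its ChIP-seq lists and of Flag-tagged Hoxc9, and no event of V5-tagged Hoxc9. They were chosen by pooling the events of the 4 deposited lists on the 19 autosomes and X, chaining events at most 200 bp from the previous one into regions, and keeping regions with that combination of lists. Chaining gave 58192 regions in all, of which 7931 held both Olig2 lists and 43810 held a Flag Hoxc9 event. ChIP-seq sequences the DNA fragments that an antibody pulls down with a factor, and an event is a single base at which the authors placed binding. Presence and absence in the lists chose the regions, so the reads, folds and positions below describe them and none was tested. There was 1 list per condition, so differences below have no replicate check, and depth is unknown.

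All lists came from Ainv15 embryonic stem cell lines, in which doxycycline switches on a tagged factor, grown as embryoid bodies. From day 2 these received retinoic acid (1 µM) and a hedgehog agonist (0.5 µM). The native Olig2 list was made with an antibody to Olig2 from day 4 cells of the line with inducible V5-tagged Olig2, without doxycycline. The V5 Olig2 list was made with anti-V5 from that line, also on day 4, after doxycycline at 3 µg/ml. The V5 Hoxc9 and Flag Hoxc9 lists were made with anti-V5 and anti-Flag from day 5 cells of a line with V5-tagged and a line with Flag-tagged Hoxc9, both with doxycycline. The V5 Hoxc9 list was 1 list for 2 libraries, and each of the others came from 1 library. Factor and day cannot be told apart, nor can the tag, the antibody and the line of the Hoxc9 lists. The mock sample, anti-V5 on uninduced cells, was not analysed here.

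Olig2, a basic helix-loop-helix protein, marks the progenitors that give rise to spinal motor neurons and, later, oligodendrocytes. It binds E-box sequences and acts largely as a repressor that keeps out the programmes of neighbouring progenitor domains. Hoxc9 is a homeodomain protein expressed at thoracic levels of the spinal cord, where it represses the Hox genes of limb levels and sets the thoracic identity of motor neurons. Homeodomain factors recognise short AT-rich sequences, often together with Pbx and Meis partners, and factors of different families can bind side by side in the same regulatory element.

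The 1456 regions were 18.4% of the 7931 regions that held both Olig2 lists (Wilson 95% interval 17.5 to 19.2). A further 971 (12.2%) held all 4 lists, 77 (0.971%) held V5 Hoxc9 without Flag Hoxc9, and 5427 (68.4%) held no Hoxc9 event. Where a region with both Olig2 lists held a V5 Hoxc9 event, the Flag list nearly always had one too, in 971 of 1048 regions (92.7%; 90.9 to 94.1). Where it held a Flag Hoxc9 event, the V5 Hoxc9 list had none in 1456 of 2427 regions (Wilson interval of the percentage 58.0 to 61.9). Overlap of the Hoxc9 lists was not confined to these regions. In all, 8539 regions held both Hoxc9 lists, 6825 of them with no Olig2 event. Of all 58192 regions, 47644 held no V5 Hoxc9 event. The lists differ in length, with 49278 Flag and 11065 V5 Hoxc9 events used. With the Flag list held to its 11065 events with most IP reads, the number of such regions fell from 1456 to 284. With the lists as deposited, over all 16912 regions with an event of either Olig2 list, a Flag Hoxc9 event was present in 26.0%.

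Most of the 1456 regions were compact. The median span from first to last event was 70 bp, and 1000 of them held exactly 3 events, 1 from each list. Another 70 regions held 6 or more events. A second native Olig2 event was present in 18.7% of the 1456 regions, a second V5 Olig2 event in 12.8% and a second Flag Hoxc9 event in 14.8%. These shares were 27.5%, 16.8% and 38.1% in the 971 regions of all 4 lists, and 7.41% and 5.95% for the Olig2 lists in the 5427 regions with no Hoxc9 event. A longer chain has more chances to take in a further event, so these counts are tied to the way regions were built.

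Olig2 events in these regions were in the upper part of their lists, and the Flag Hoxc9 events were in the middle of theirs. IP reads, the authors' estimate of immunoprecipitated reads per event, are given for the strongest event of each list in a region. Native Olig2 IP reads ran from 11.5 over a median of 54 to 876.6, and the median rank was 3643 of 15697. V5 Olig2 IP reads ran from 16 over a median of 59.2 to 1232.5, with a median rank of 3976 of 11067. Flag Hoxc9 IP reads ran from 24.1, beside a list minimum of 24, over a median of 65.8 to 649, with a median rank of 21741 of 49278. The quartiles of Flag Hoxc9 reads were 45.7 and 99.

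Flag Hoxc9 events were weaker here than where the V5 Hoxc9 list also had an event. Median Flag IP reads were 65.8 (order-statistic 95% interval 63.6 to 68.7) in the 1456 regions and 168.6 (159.9 to 182) in the 971 regions of all 4 lists, 2.56 times as many. The first median was 0.390 of the second, and this ratio was 0.628 with the Flag list at the V5 Hoxc9 list's length by IP reads and 0.683 by the deposited p. Median Flag IP reads were 50 in the 32586 regions with a Flag event alone and 136 in the 6825 with both Hoxc9 lists and no Olig2 event. Flag events without a V5 Hoxc9 event were thus weaker in the absence of Olig2 events too. The Flag event ranked within the first 11065 of its list in 282 of the 1456 regions (19.4%; 17.4 to 21.5) and in 675 of the 971 (69.5%), beside 22.1% of all regions with a Flag event. Olig2 reads differed less between these classes. Median native IP reads were 54 in the 1456 regions, 63 in regions of all 4 lists and 41 in regions with no Hoxc9 event. For V5 Olig2 the medians were 59.2, 66 and 52. The box plots of IP reads by region class show this pattern, with wide overlap between the classes in both Olig2 lists.

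**Figure D1:**
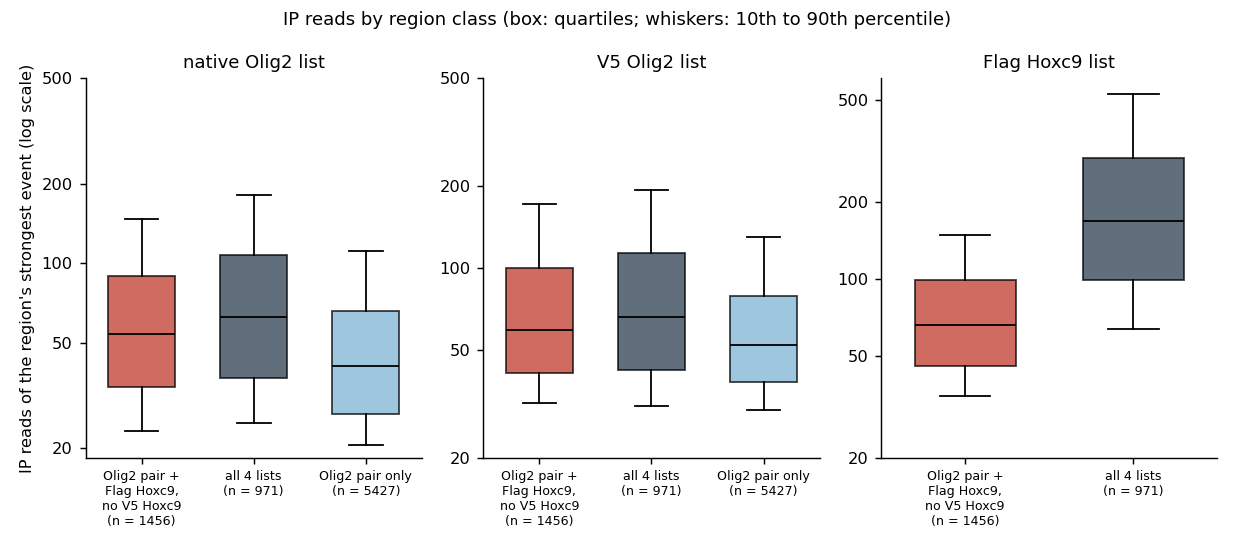
IP reads of the strongest event per region (log axis) in the native Olig2, V5 Olig2 and Flag Hoxc9 lists, for 1456 regions with both Olig2 lists and Flag Hoxc9 only, 971 regions of all 4 lists and 5427 regions with no Hoxc9 event. Boxes are quartiles with the median, and whiskers run from the 10th to the 90th percentile. The classes overlap widely in the Olig2 lists, while median Flag reads are 65.8 against 168.6.

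Regions strongly bound by Olig2 held a Flag Hoxc9 event without a V5 Hoxc9 event more often than weakly bound ones. The 7931 regions were cut into 10 near-equal groups by native Olig2 reads. Among the 794 regions with most native Olig2 IP reads (129 to 1152), 200 were of this kind (25.2%; 22.3 to 28.3). Among the 793 with fewest (11.5 to 21), 97 were (12.2%; 10.1 to 14.7). The difference was 13.0 percentage points by native reads and 9.93 points by V5 Olig2 reads, where the shares were 24.9% and 15.0%. By V5 Olig2 reads the fall was not steady. Counted from the strongest, the share was 14.9% in group 5, 18.5% in group 7 and 15.0% in group 10. By native reads, regions of all 4 lists rose from 7.44% in the weakest to 23.3% in the strongest group. Of regions with any Flag event, the part without a V5 Hoxc9 event was thus 62.2% in the weakest and 51.9% in the strongest group. The median of Flag control reads at these regions also moved over this range, from 2.1 in the weakest to 8.3 in the strongest group, and its part in the result was not tested. With every list limited to events whose control reads did not exceed the list's median, the difference was 4.12 points. It was 5.03 points with the Flag list at the V5 Hoxc9 list's length by IP reads, 2.14 points by the deposited p, and 5.17 points with all lists at the shortest length.

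**Figure D2:**
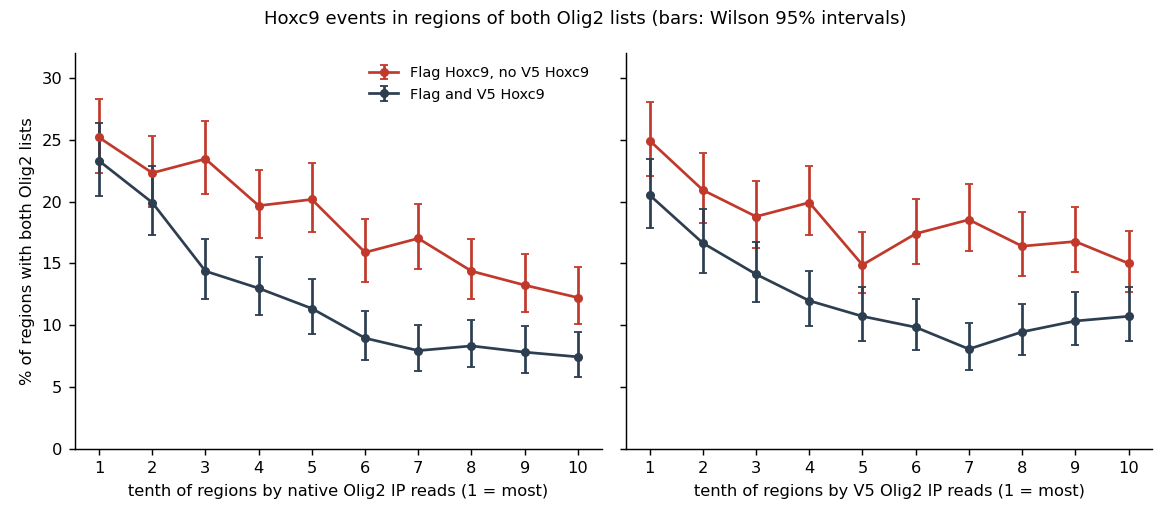
Share of the 7931 regions of both Olig2 lists that held Flag Hoxc9 without V5 Hoxc9, or both Hoxc9 lists, in 10 near-equal groups by native (left) and V5 (right) Olig2 IP reads, with Wilson 95% intervals. By native reads the first share runs from 25.2% in the strongest to 12.2% in the weakest group, and the second from 23.3% to 7.44%.

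Reads of the Olig2 lists followed each other closely across these regions, and reads of Olig2 and Flag Hoxc9 only weakly. Across the 1456 regions, Spearman's rho of IP reads was 0.729 between the Olig2 lists, and 0.199 (native) and 0.195 (V5) between Olig2 and Flag Hoxc9. The regions are not independent replicates. Control reads of the lists had a rho of 0.871 between the Olig2 lists and of 0.739 between native Olig2 and Flag Hoxc9. The control library of each list is not given, and a shared library would make these values high by construction. They therefore do not show how far IP reads share regional coverage, which was not tested. The median log2 ratio of V5 to native Olig2 reads was 0.20 here and 0.38 in regions with no Hoxc9 event. Within the 10 groups of native reads, averaged with the weights of the 1456 regions, the ratios were 0.17 and 0.23. Native reads are the denominator of this ratio, so grouping on them shifts it by construction, and matching on V5 Olig2 reads was not run.

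Split into 5 near-equal groups by their own Flag Hoxc9 reads, the regions had lower Olig2 reads only toward the weak end. The 292 regions with most Flag reads (111 to 649) had median native Olig2 reads of 58 and V5 Olig2 reads of 65.8. The next 291 had 66 and 70. The 291 with fewest Flag reads (24.1 to 42.5) had 42 and 47.5. Median Flag control reads fell over the same groups from 10.4 to 2.1.

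The 10 regions with the best worst rank over the 3 lists were spread over 8 chromosomes. The first, on chromosome 1 from 129452850 to 129453167 (mm9), held 119 native Olig2, 104 V5 Olig2 and 366.8 Flag Hoxc9 IP reads, and the nearest V5 Hoxc9 event lay 20472 bp away. Its strongest Flag event was 203 bp from the native Olig2 event, while the Olig2 events were 23 bp apart. The second spanned 12 bp on chromosome 2 (34135456 to 34135468), with 246 native Olig2, 103 V5 Olig2 and 426.6 Flag Hoxc9 reads beside 1, 3.1 and 6.2 control reads. Here the Flag event was 11 bp and the V5 Olig2 event 1 bp from the native Olig2 event. The third, on chromosome 3 from 16759132 to 16759173, had 242, 309 and 306 reads, and its Flag event had 24.9 control reads and a fold over control of 12.3.

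The remaining 7 had between 66.6 and 190.9 native Olig2 reads. On chromosome 6 (112760035 to 112760180) there were 119 native Olig2, 100.1 V5 Olig2 and 303.1 Flag Hoxc9 reads. On chromosome 12 (54164061 to 54164205) the V5 Olig2 event had 99 reads but 15.5 control reads and a fold of 6.4, beside 107 native and 300.1 Flag reads. The region on chromosome 2 at 48394651 to 48394682 is one that the rule only just kept: its nearest V5 Hoxc9 event lay 268 bp away, and its Flag event had 268.6 IP and 28.6 control reads, a fold of 9.4. The others were on chromosome 11 (109068068 to 109068293, 315.5 Flag reads), chromosome 16 (45999911 to 46000069, 269.1), chromosome 14 (118965523 to 118965785, 254.7) and chromosome 3 (138517395 to 138517775, 252). The one on chromosome 14 had 2.3 Flag control reads and a fold of 111.3.

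Ordered by the Flag list alone, the first region lay on chromosome 1 from 3832266 to 3832444. It had 649 Flag Hoxc9 reads (rank 386 of 49278) with 53.3 native and 70.9 V5 Olig2 reads, and the nearest V5 Hoxc9 event lay 159396 bp away. The regions on chromosome 2 and chromosome 1 named first above came next. They were followed by 103862988 to 103863298 on chromosome 3 (361.5 Flag reads, 64.2 native and 40.7 V5 Olig2 reads) and 67162483 to 67162546 on chromosome 3 (343, 53 and 37). Of these 5, the 2 also named above had Olig2 reads well over the set's medians of 54 and 59.2, and the other 3 had at most 64.2 native and 70.9 V5 reads.

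The regions with the strongest Olig2 events, picked out after their values were seen, had Flag events with fewer reads than those. Of the 10 regions of both Olig2 lists with most native reads, 3 were in this set, 5 held all 4 lists and 2 held no Hoxc9 event; of the first 100 the counts were 30, 29 and 41. The region on chromosome 1 from 128758561 to 128758718 holds the first-ranked V5 Olig2 event (1232.5 reads) and 876.6 native reads, and its Flag event had 116.6 IP and 14.2 control reads, a fold of 8.2. On chromosome 13, the region from 64122341 to 64122441 had up to 806.2 native and 791 V5 Olig2 reads, beside a Flag event of 133 IP and 22.8 control reads. On chromosome 8, at 9859442 to 9859518, both Olig2 events were called at the same base with 295 native and 790 V5 reads, and the Flag event 76 bp away had 34.4.

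The regions with most events were chains of several calls. On chromosome 5 from 22920032 to 22920514, 4 native Olig2, 4 V5 Olig2 and 2 Flag Hoxc9 events followed one another, the strongest with 100.8, 175.7 and 239.1 reads. On chromosome 5 (114371494 to 114372032) and chromosome 7 (127005064 to 127005622), 9 events each were chained. In the last, the Flag event at one end had 62 IP and 16.6 control reads, a fold of 3.7, and lay 150 bp from the strongest native Olig2 event.

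Flag Hoxc9 events lay close to the Olig2 events, though not as close as events of 1 factor in different lists. The strongest native Olig2 and Flag Hoxc9 events were a median of 44 bp apart (order-statistic 95% interval 40 to 47), and 805 of 1456 pairs (55.3%) were within 50 bp. The V5 Olig2 and Flag Hoxc9 events were 42 bp apart. The native and V5 Olig2 events of the same regions were 14 bp apart (13 to 15), and 89.1% were within 50 bp. In regions of all 4 lists the distances were 49 bp from native Olig2 to Flag Hoxc9, 16 bp between the Olig2 events and 22 bp between the Hoxc9 events. Distances are bounded by the chaining, and long chains stretch them: in regions with a single event per list, native Olig2 and Flag Hoxc9 were 34 bp apart both in the 1000 regions of this set (32 to 37) and in 459 of all 4 lists (30 to 37).

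Flag Hoxc9 events lay on either side of the native Olig2 event about equally often. They were at the higher coordinate in 735 regions, at the lower in 711 and at the same base in 10, without regard to strand. Events within 20 bp of each other made up 27.6% of the regions (402), those from 21 to 50 bp 27.7%, from 51 to 100 bp 23.6%, and farther ones 21.2%. Median Flag reads in these 4 groups were 63, 67.4, 66 and 66.8, and median native Olig2 reads were 58.5, 56, 51 and 50. Flag reads hardly varied with spacing, and native reads were slightly lower at wide spacing.

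**Figure D3:**
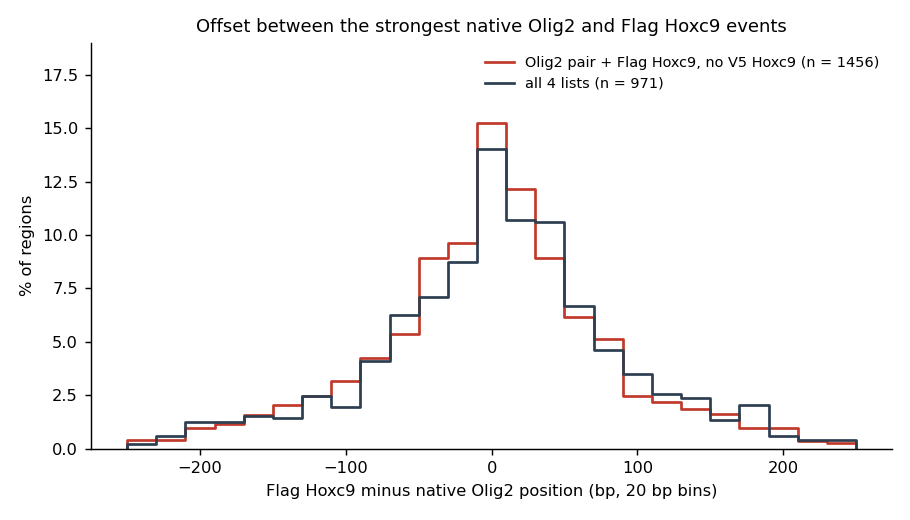
Offset in bp from the strongest native Olig2 to the strongest Flag Hoxc9 event, in 20 bp bins, as a percentage of the 1456 regions without and the 971 regions with a V5 Hoxc9 event. Both distributions are highest near 0 and fall off on both sides, and 18 and 30 regions beyond 250 bp are not drawn.

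At equal Flag reads, a V5 Hoxc9 event was found more often where both Olig2 lists had one than where neither had. Over all regions with a Flag event, 19.5% held a V5 Hoxc9 event. The share was 40.0% with both Olig2 lists (971 of 2427; 38.1 to 42.0) and 17.3% with no Olig2 event (6825 of 39411; 16.9 to 17.7). Among regions with 50 to below 75 Flag IP reads, it was 18.5% of 503 (15.3 to 22.1) and 10.0% of 8538 (9.38 to 10.7). From 100 to below 150 reads it was 44.8% of 393 and 27.6% of 4309, and from 200 to below 300 reads 81.0% of 205 and 60.2% of 1687. At 500 or more reads, 108 of 109 regions with both Olig2 lists held a V5 Hoxc9 event (99.1%), and the remaining region was the one on chromosome 1 at 3832266.

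In each of the 10 classes of Flag reads the share was higher with Olig2. Wilson intervals, which cover counting error only, did not overlap in any class. The presence of a V5 Hoxc9 event is part of the rule and regions are not replicates, so this comparison describes the lists and tests nothing. Weighted by the Flag reads of the 2427 regions, regions with no Olig2 event had a share of 28.3%, which was 11.7 points below 40.0%. Matched on the deposited Flag fold in place of reads, regions with no Olig2 event had a share of 15.5%, a difference of 24.5 points. Within this comparison, median Flag control reads were higher with Olig2 too, for example 8.3 against 4.2 from 100 to below 150 Flag reads. Split at the list's median of control reads, the difference was 19.2 points in the low part and 12.2 points in the high part, where the share with Olig2 was higher in 10 and in 9 of 10 classes. Regions with a single Flag event gave 10.0 points. The plot of V5 Hoxc9 events by Flag reads shows both curves.

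**Figure D4:**
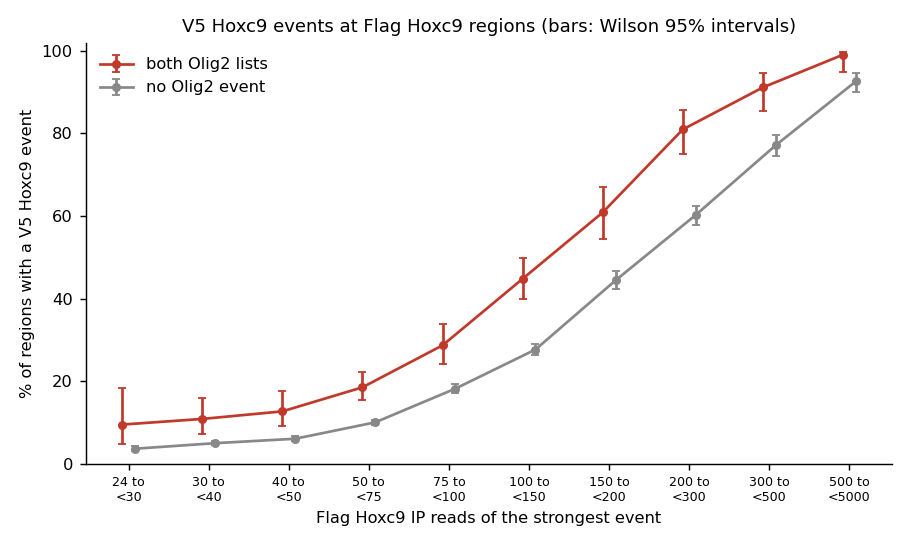
Percentage of Flag Hoxc9 regions that held a V5 Hoxc9 event, by Flag Hoxc9 IP reads of the strongest event, for 2427 regions with both Olig2 lists and 39411 with no Olig2 event; bars are Wilson 95% intervals. The curve with Olig2 lies above the other in all 10 classes, for example 44.8% against 27.6% from 100 to below 150 reads.

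Control reads at the Flag events were higher in these regions than in regions with a Flag event alone, but the counts are small. Flag control reads often fell on multiples of 2.08. The medians were 2.98 such steps here and 1.06 with a Flag event alone. Median Flag control reads were 6.2 in the 1456 regions and also in the regions of all 4 lists, but 2.2 in the 32586 regions with a Flag event alone and 2.1 in the 6825 regions with both Hoxc9 lists and no Olig2 event. Of the 1456 Flag events, 330 (22.7%; 20.6 to 24.9) were at or below the list's median of 2.4, beside 49.3% of all regions with a Flag event. The set's share of Flag regions rose from 1.42% (147 of 10358) where control reads were below 1 to 18.7% (150 of 803; 16.1 to 21.5) where they were 15 or more. The V5 Hoxc9 share of regions with both Olig2 lists and Flag was 44.1% below 1 control read, fell to 34.5% (29.2 to 40.1) from 8 to below 10, and was 41.6% at 15 or more.

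The deposited fold of IP over control was low in the Flag list, beside other regions with a Flag event, and not in the Olig2 lists. The Flag fold reached 10 in 812 of the 1456 regions (55.8%; 53.2 to 58.3), beside 79.7% of all regions with a Flag event, 77.4% of those with a Flag event alone and 90.7% of regions of all 4 lists. Regions of all 4 lists had the same median of Flag control reads as the 1456 regions, 6.2, but median Flag IP reads of 168.6 against 65.8. For V5 Olig2 the share was 82.6% beside 80.5% of all regions with such an event, and for native Olig2 99.5% beside 96.0%. In 719 regions (49.4%) the fold was at least 10 in all 3 lists, a share not worked out for other classes. With only events of such fold in each list, 1075 regions met the rule. This filter left out V5 Hoxc9 events of low fold too, and regions of all 4 lists fell from 971 to 453.

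The control reads of the Olig2 events were compared only among classes with both Olig2 lists. The lower Flag control reads above were in classes with no Olig2 event, so the spread between classes is not comparable. Their medians were 1.3 (native) and 3.8 (V5 Olig2) in the 1456 regions, 1 and 3.4 in regions of all 4 lists, and 1 and 3.1 in regions with no Hoxc9 event. The part of control coverage in the presence of Flag Hoxc9 events at Olig2 sites was not tested. With every list limited to events of low control reads, as above, 419 regions met the rule, 10.8% of the 3872 regions with both Olig2 lists that were left.

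**Figure D5:**
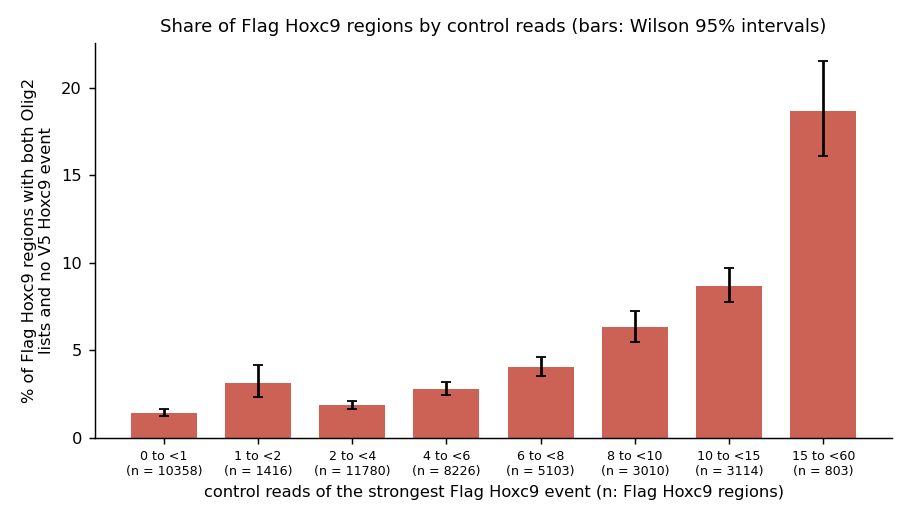
Share of all Flag Hoxc9 regions that held both Olig2 lists and no V5 Hoxc9 event, by control reads of the strongest Flag Hoxc9 event; bars are Wilson 95% intervals and n is the number of Flag Hoxc9 regions. The share is 1.42% below 1 control read and 18.7% at 15 or more.

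V5 Hoxc9 events were somewhat more frequent in the surroundings of these regions than around all regions that lack one. Within 1000 bp the share was close to that around regions with a Flag event alone. A V5 Hoxc9 event lay within 1000 bp of 109 of the 1456 regions (7.49%; 6.24 to 8.95), beside 5.29% of all 47644 regions with no V5 Hoxc9 event. The share was 6.07% (5.82 to 6.34) around regions with a Flag event alone and 2.82% (2.41 to 3.29) around regions of both Olig2 lists with no Hoxc9 event. The median distance to the nearest V5 Hoxc9 event was 42007 bp, beside 57662 bp and 65464 bp. Intervals of the set and of regions with a Flag event alone overlapped at 1000 bp. Within 5000 bp they did not, with shares of 17.5% (15.6 to 19.6) and 13.8% (13.4 to 14.1). The 109 regions had median Flag reads of 82.1, and the other 1347 had 64. In the 5 groups by Flag reads, a V5 Hoxc9 event lay within 1000 bp of 35 of 292 regions in the strongest and of 11 of 291 (3.78%) in the weakest. The closest V5 Hoxc9 events lay 208, 213 and 217 bp beyond the edge of a region, 2 of them on chromosome 18 and 1 on chromosome 2 (136918418 to 136918634, 64.4 Flag reads).

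On the other side of that limit, the regions of all 4 lists with the widest gap to their V5 Hoxc9 event were on chromosome 3 (34564241 to 34564463, gap 185 bp, 38.4 V5 Hoxc9 reads), chromosome 10 (83940493 to 83940950, 180 bp, 41.3) and chromosome 16 (16559589 to 16559798, 175 bp, 31.9). The weakest V5 Hoxc9 events that kept a region out of the set had 25, 25.6 and 25.6 IP reads, at the list's minimum of 25. For the Flag events, the regions of the set with the Flag event farthest from an Olig2 event were on chromosome 16 (63806448 to 63806742, 200 bp), chromosome 10 (17198438 to 17198766, 198 bp) and chromosome 8 (86271477 to 86271807, 198 bp), and the nearest Flag events outside lay 202, 202 and 203 bp from a region. Of the 5427 regions with both Olig2 lists and no Hoxc9 event, 495 (9.12%) had a Flag Hoxc9 event within 1000 bp, a share not worked out for other classes.

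The regions were found on all 20 chromosomes. Their share of regions with both Olig2 lists ran from 11.8% on chromosome 11 (64 of 541; 9.37 to 14.8) to 23.8% on chromosome 18 (72 of 302; 19.4 to 29.0). Shares of 23.2% on chromosome 14 and 23.0% on chromosome 6 came next. On X, 23 of the 29 regions with both Olig2 lists and Flag lacked a V5 Hoxc9 event (79.3%; 61.6 to 90.2), the highest such share, beside 53.8% on chromosome 13, the lowest. These extremes were picked from 20 values.

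Of the 1456 regions, 1194 had no other within 50 kb, and the median gap to the next was 866263 bp. Gaps were not measured for other classes or all regions, so these values do not show whether the set is unusually spread out or clustered. The 262 regions with another of the set within 50 kb formed 106 pairs, 10 runs of 3 and 5 runs of 4. The longest run covered 132552 bp on chromosome 4 (116956001 to 117088553) and also held 2 regions of all 4 lists and 6 with both Olig2 lists and no Hoxc9 event, among 34 regions of which 8 held a V5 Hoxc9 event. Its 4 regions had between 44 and 123 Flag reads and between 33 and 163 native Olig2 reads. The run on chromosome 8 (123029147 to 123089315) held 1 region of all 4 lists among 21. In contrast, the run on chromosome 2 from 145899182 to 145943995 held no V5 Hoxc9 event in any of its 6 regions, and its 4 regions had 145.5, 41, 55.8 and 70.8 Flag reads. The others lay on chromosome 2 (28808617 to 28872353) and chromosome 9 (96858648 to 96890190), where native Olig2 reads reached 370.1 beside a Flag event of 30.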

How the data were processed

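The submitters' processing notes name Bowtie 0.12.5 and mm9. The event caller, its version and settings, and its control library were not given in the sources used here. The tables deposited by the authors give each event's IP and control reads as estimated counts, not always whole, which were used unrounded and without a count model. They also hold the authors' fold of IP over control (a ratio, in most cases 9999.9 where control reads are listed at 0) and the deposited −log10 of p and q. Positions are single bases of mm9 and can be off by 1 bp, since the deposited intervals begin at the same number. The 22 events on other contigs were left out, and none of their 18 regions met the rule.

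Regions were classed by the lists they held, and the strongest event by IP reads stood for a list. The members, comparisons and alternatives were chosen with earlier results of these data known. The comparison at equal Flag reads, with its alternatives, the groups by Flag reads and by spacing, and the runs were added after the files were seen. Regions were named by a rule: the 10 with the best worst rank over the 3 lists, the 5 with the best Flag rank, the 3 with most events, and 3 on each side of each limit of the rule. The 2 regions nearest to a V5 Hoxc9 event, on chromosome 18, are given without positions.

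Without library totals, levels of IP reads in different lists were not set against each other, apart from the ratio of V5 to native Olig2 reads. The level of that ratio depends on the unknown depths, and it was compared between region classes. Wilson 95% intervals of shares and binomial order-statistic 95% intervals of medians cover counting error only, and neighbouring regions are not independent. Alternatives were other gaps, equal list lengths, a fold of 10 or more, low control reads, no chaining and sums of events. Chaining was tested on simulated lists. Planned shares of motifs and neighbouring genes were not run for want of an mm9 genome, and no gene is named. Software was matplotlib 3.10.9, SciPy 1.17.1, pandas 2.3.3 and numpy 2.4.6 under Python 3.11.15.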

Additional observations from a re-analysis of the deposited data

How the results depend on the processing

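The size of the set depends on the length of the Flag Hoxc9 list. The 1456 regions became 284 with the Flag list at the V5 Hoxc9 list's length by IP reads, 178 by the deposited p, 267 with all lists at the shortest length, and 419 with low control reads. They were 1366, 1513 and 1596 with gaps of 100, 500 and 1000 bp, 1075 with a fold of 10 or more and 1723 native events without chaining. In the order of gaps of 100, 500 and 1000 bp, Flag at equal length by reads, all lists at equal length, Flag by p, fold of 10 or more, low control reads and no chaining, the share of regions with both Olig2 lists was 16.8%, 19.6%, 20.9%, 3.58%, 3.95%, 2.24%, 16.7%, 10.8% and 19.3%, beside 18.4%.

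Median Flag reads in the set were 0.390 of those in regions of all 4 lists. This moved to 0.628, 0.634 and 0.683 at equal lengths (in the order above), 0.529 with a fold of 10 or more, 0.506 with low control reads and 0.330 for sums of events. The 44 bp from native Olig2 to Flag Hoxc9 became 35.5, 57 and 71.5 bp with gaps of 100, 500 and 1000 bp, which bound it. The difference of 13.0 points between the strongest and weakest of 10 groups by native reads became 5.03, 5.17 and 2.14 points at equal lengths and 4.12 points with low control reads. The alternatives for the difference at equal Flag reads were chosen after seeing the data: its 11.7 points became 19.2 points with low and 12.2 with high control reads, 24.5 points matched on fold, and 11.1 points with V5 Hoxc9 events counted only within 200 bp of the strongest Flag event. The number, share and distance are never negative and have no direction to change; both differences stayed above 0 and the ratio below 1 in the alternatives run for them. Apart from fewer events by construction, the causes were not tested. No paired analysis was possible because each condition has 1 list and no test was made. Depth is unknown and no replicate list was used, so the V5 Hoxc9 events absent here may be present below the authors' threshold.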
